A study of Mus musculus with 19 samples.

Results

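Fibroblasts of the adventitia, the outer layer of the aortic wall, were described through 9 genes that are used to recognise them, Pdgfra, Cd34, Ly6a, Dpp4, Gli1, Pi16, Pi15, Clec3b and Dpt. They were matched by gene symbol, and all 9 of the 55414 genes in the files were found and passed the filter on low counts, which kept 17617 genes. RNA was sequenced from whole abdominal aortas of male Apoe-/- mice on a C57Bl/6J background, in 19 libraries, 1 per mouse. All 3 groups received angiotensin II (AngII) from an osmotic pump placed at 8 to 10 weeks of age, which leads to abdominal aortic aneurysm in these mice, so no library comes from a mouse without AngII. Control mice (n = 5) were not irradiated but received the same anaesthetic. D-3 IR mice (n = 7) received 1 Gy of X-rays to the whole body 3 days before AngII, and D+1 IR mice (n = 7) received it 1 day after AngII began. In the study as a whole, mice killed on day 7 after pump placement served for tissue analyses, and the description of the sequencing names no day for these aortas.

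Adventitial fibroblasts make the collagen-rich outer coat of the artery, hold stem-like cells that are marked by Pi16, Dpp4, Ly6a and Cd34, and can turn into matrix-producing myofibroblasts after injury. Platelet-derived growth factor (PDGF) acts on them through the receptor PDGFRα, and hedgehog ligands act through the receptors Ptch1 and Smo to release transcription factors of the Gli family. None of the 9 genes is restricted to these cells. Cd34 and Ly6a are also made by endothelial and blood-forming cells, and Dpp4, known as CD26, also by T cells. In RNA of a whole wall, fewer cells of a type and less RNA per cell cannot be told apart.

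The libraries held 25839001 to 97083681 counts in genes (median 39641963). Levels are given as CPM, the share of a library's counts scaled by TMM factors. The 20 collagen and other matrix genes listed for fibroblasts were detected in every library, and their summed level was 9804 CPM or more in all libraries but D+1 IR 3, where it was 3347 CPM. Summed over 8 lymphocyte genes, library D-3 IR 10 had 421 CPM and library D+1 IR 3 had 246 CPM, against 2.26 to 29.6 CPM in the others. D+1 IR 1, 2 and 3 carry another number in their file names than the other 16 libraries, and the main results are also given without library 3 or without those 3. Apoe was still counted, at 3.58 to 31.9 CPM.

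The 9 genes lie on 7 chromosomes of GRCm38 (GENCODE M21). Pdgfra is at chr5:75152292-75198215, Cd34 at chr1:194938819-194961279, Dpt at chr1:164796644-164824266 and Pi15 at chr1:17601901-17630939. Ly6a is at chr15:74994877-74998031, Dpp4 at chr2:62330073-62412231, Gli1 at chr10:127329882-127341974, Pi16 at chr17:29317680-29330593 and Clec3b at chr9:123150946-123157432. Exons of Gli1 overlap those of Arhgap9 on the other strand, and exons of Pdgfra, Pi16, Pi15, Dpp4 and Cd34 overlap those of other annotated genes. The counts used ignore strand. Reads that were ambiguous between genes (3.70% to 4.39% per library) were set apart and given to no gene. Ly6a has close relatives in the same gene cluster, and reads that aligned to several places were not counted.

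RefSeq promoter sequences were at hand for 5 of the 9 genes (Pdgfra, Pi16, Dpp4, Cd34 and Dpt). The bases from 250 to 51 before the start are shown for Dpt, Cd34 and Pdgfra, whose levels moved together across the libraries (below), and for Dpp4, whose level did not follow theirs. In GRCm38.p6 the windows are chr1:164796413-164796612 (Dpt, plus strand), chr1:194938571-194938770 (Cd34, plus strand), chr5:75152001-75152200 (Pdgfra, plus strand) and chr2:62412282-62412481 (Dpp4, minus strand). Capitals mark matches to any of the motifs searched on both strands, which were the TATA box (TATAAA), the GC box (GGGCGG), the E-box bound by Twist and related factors (CANNTG), AP-1 (TGANTCA), TEAD (CATTCC), the interferon-γ activated site (TTCNNNGAA) and the GLI site (GACCACCCA).
Dpt: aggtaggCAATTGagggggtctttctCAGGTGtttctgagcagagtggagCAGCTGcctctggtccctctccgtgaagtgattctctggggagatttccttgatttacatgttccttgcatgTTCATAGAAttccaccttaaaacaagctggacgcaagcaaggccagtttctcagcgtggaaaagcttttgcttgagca
Cd34: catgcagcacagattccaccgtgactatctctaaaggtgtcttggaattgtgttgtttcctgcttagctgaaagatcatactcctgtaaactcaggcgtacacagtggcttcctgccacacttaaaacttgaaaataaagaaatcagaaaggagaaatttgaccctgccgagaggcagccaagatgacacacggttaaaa
Pdgfra: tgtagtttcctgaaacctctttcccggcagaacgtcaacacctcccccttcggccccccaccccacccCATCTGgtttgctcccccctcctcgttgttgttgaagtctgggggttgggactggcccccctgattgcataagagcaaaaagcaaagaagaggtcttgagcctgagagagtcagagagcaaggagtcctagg
Dpp4: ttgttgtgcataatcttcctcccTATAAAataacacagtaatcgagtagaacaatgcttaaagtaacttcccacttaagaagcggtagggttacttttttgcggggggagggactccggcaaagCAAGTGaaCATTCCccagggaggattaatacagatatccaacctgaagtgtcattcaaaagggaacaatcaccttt
The Dpt window held 3 E-boxes, 243, 224 and 200 bases before the start, and 1 interferon-γ activated site at 128 bases. Pdgfra held 1 E-box. Dpp4 held 1 TATA box, 1 E-box and 1 TEAD motif, and Cd34 and Pi16 held none of the 7 motifs. The Pi16 window, chr17:29318632-29318831, lies inside the gene as GENCODE M21 places it. Of 32851 windows of the same length, 59.0% held an E-box, 24.6% a GC box, 10.7% a TEAD motif, 9.14% a TATA box, 5.76% an interferon-γ activated site, 5.57% an AP-1 motif and 0.192% a GLI site. These matches are letters in a window and not measured binding. The 3 genes that moved together shared no motif of the list, since Cd34 held none.

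Between genes, levels were compared per length of exon, in RPKM, which is CPM divided by the exon length in kilobases. Dpt, Ly6a and Clec3b had the highest medians over the 19 libraries, 146, 137 and 130 RPKM. Ly6a was above Clec3b in 10 of 19 libraries and Clec3b above Dpt in 12, so that these 3 could not be put in an order. Dpt exceeded Pi16 (median 48.2 RPKM) in all 19 libraries. Pi16, Pi15 (25.5 RPKM) and Cd34 (23.1 RPKM) formed a middle tier in which Pi16 was above Pi15 in 15 libraries and Pi15 above Cd34 in 11. Pdgfra (6.14 RPKM) was below Cd34 and above Gli1 (1.91 RPKM) in every library, and Dpp4 (0.416 RPKM) was below Gli1 in 17 of 19. The 2 least abundant genes rested on 133 to 1329 counts per library (Gli1) and 39 to 406 counts (Dpp4), and every other gene on at least 258.

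**Figure D1:**
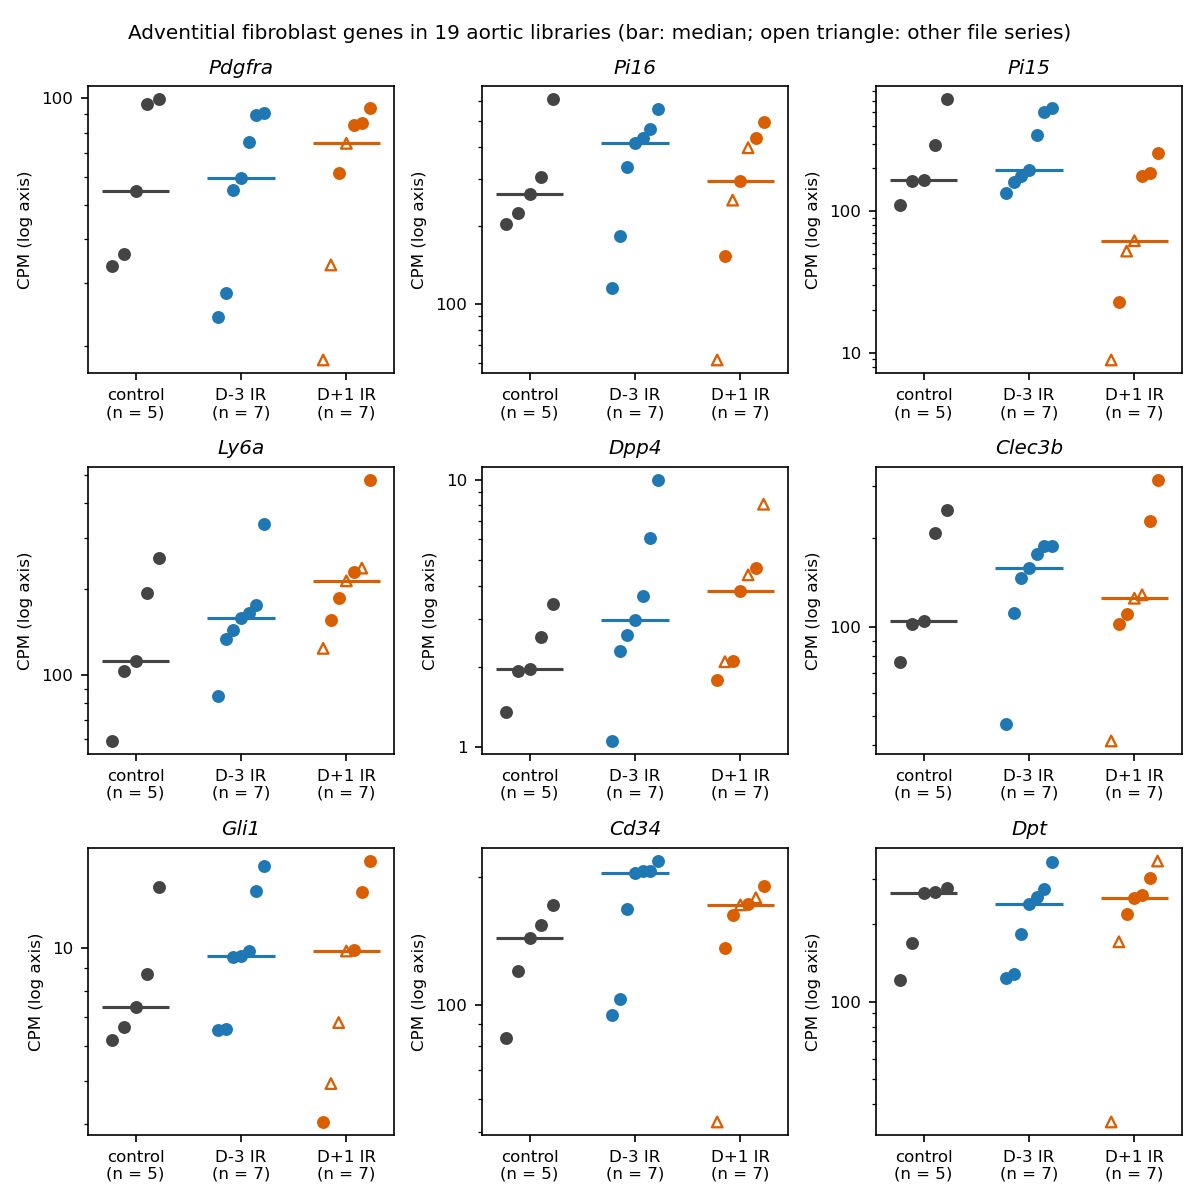
CPM of each of the 9 genes (log axis, each panel with its own scale) in control, D-3 IR and D+1 IR libraries. Each point is 1 library, sorted by level within its group, bars are medians, and open triangles are D+1 IR 1, 2 and 3. The 3 groups overlap for every gene, and 4 of the 7 D+1 IR libraries lie below all others for Pi15.

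The question of the 3 comparisons was whether these genes differ with irradiation before or after the start of AngII. Each irradiated group was set against control, and the 2 irradiated groups against each other, where a positive log2 fold change is a higher level in D-3 IR. No gene of the 9 passed edgeR's quasi-likelihood test after Benjamini-Hochberg adjustment in any comparison, where 0% of the 17617 genes passed. At an unadjusted p under 0.05, D-3 IR differed from control for 0 of the 9, where 1.32% of all genes fell under it, and D+1 IR for 0 of the 9, where 7.11% did. The irradiated groups differed at that p for 1 of the 9, Pi15, where 11.5% of all genes did, and any difference among the 3 groups was under it for 0 of the 9, where 6.65% were. DESeq2 called 0 of the 9 and at most 0.318% of all genes. The weighted fit of limma voom called only Pi15, between the irradiated groups, where it called 13% of all genes. The median log2 fold change of the 9 against control was 0.16 for D-3 IR and 0.05 for D+1 IR, and it was 0.09 between the irradiated groups, beside medians of -0.03, -0.04 and -0.04 over all genes. The first 2 comparisons share the control libraries. The 95% interval lay within a 2-fold change in either direction for 5 genes in each comparison with control and for 6 between the irradiated groups, and reached beyond it for the others.

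**Figure D2:**
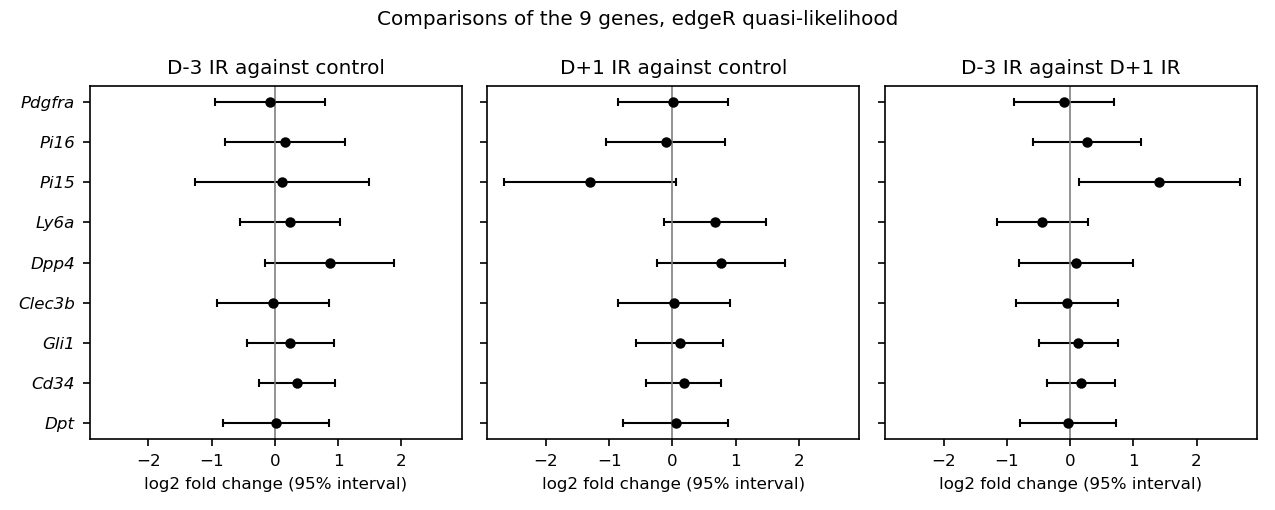
Log2 fold change of each gene with its 95% interval, for each irradiated group against control (left and middle) and for D-3 IR relative to D+1 IR (right), from edgeR's quasi-likelihood fit over all 19 libraries. The intervals include 0 for each gene and comparison other than Pi15 on the right, whose interval runs from 0.13 to 2.69.

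Among the surface proteins, Pdgfra, the receptor that marks most fibroblasts, had similar ranges in the 3 groups. Its values in control libraries were 33.6, 36.2, 54.7, 96.2 and 99.5 CPM. D-3 IR ran from 24.1 over a median of 59.4 to 91.1 CPM, and D+1 IR from 18.2 over 74.6 to 93.5 CPM. The groups covered nearly the same range, and the largest of the 3 log2 fold changes in size was -0.09 (standard error 0.38), between the irradiated groups. Without D+1 IR 1, 2 and 3 it was -0.42 there and 0.36 in D+1 IR against control, in place of 0.01, with neither passing edgeR's test.

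Cd34, a sialomucin of stem-like fibroblasts, endothelium and blood-forming cells, was measured at 83.4, 120, 144, 154 and 171 CPM in control aortas. In D-3 IR it ran from 94.6 over 204 to 218 CPM and in D+1 IR from 52.9 over 172 to 190 CPM. The highest 4 D-3 IR libraries exceeded every library of both other groups, while D-3 IR 10 and 11 lay among the lower control libraries. Relative to control, the log2 fold change of D-3 IR was 0.35 (standard error 0.28, adjusted p = 1 by edgeR) and without D-3 IR 10 and D+1 IR 3 it was 0.44. Endothelial genes moved the same way, with all 8 of the list positive in D-3 IR relative to control (median 0.42, 0 called by edgeR and 0 at an unadjusted p under 0.05), and their summed level was 494 to 965 CPM in control and 785 to 1485 CPM in D-3 IR. In D+1 IR relative to control, 7 of the 8 endothelial genes were positive as well (median 0.46), where Cd34 had 0.18. The part of endothelial genes in the values of Cd34 was not tested. Cd34 had the narrowest interval of the 9 genes, from -0.25 to 0.95 in D-3 IR against control.

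Ly6a, which encodes the stem cell antigen Sca-1 and responds to interferon, had values of 59.1, 104, 112, 194 and 256 CPM in control libraries. It ran from 84.5 over 158 to 338 CPM in D-3 IR and from 124 over 213 to 479 CPM in D+1 IR. The highest value belonged to D+1 IR 20, and the groups overlapped. The log2 fold change in D+1 IR against control was 0.68 (standard error 0.38, adjusted p = 0.644 by edgeR), and it ranged from 0.40, without D+1 IR 20, to 0.99, without control 9, when each library was left out. In the same comparison all 7 macrophage genes were positive (median 0.51) and 9 of 10 interferon response genes (median 0.47), with 0 called by edgeR and 0 at an unadjusted p under 0.05 in both lists. The summed macrophage level was 255 to 1787 CPM in control and 496 to 3685 CPM in D+1 IR. The summed interferon response level was 803 CPM in D+1 IR 20, 131 to 346 CPM in the other D+1 IR libraries and 148 to 322 CPM in control. Its median was 198 CPM in control and 206 CPM in D+1 IR. The part of macrophage and interferon response genes in the value of Ly6a was not tested.

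Dpp4, a peptidase that cleaves dipeptides from chemokines and hormones, was scarce, at 1.36 to 3.42 CPM in control aortas. In D-3 IR it ran from 1.05 over 2.98 to 9.96 CPM, and in D+1 IR from 1.78 over 3.82 to 8.09 CPM. The highest values were those of D-3 IR 10 and D+1 IR 3, the 2 libraries with the most RNA of lymphocyte genes. The log2 fold changes against control were 0.86 (standard error 0.48) in D-3 IR and 0.77 (standard error 0.48) in D+1 IR, with adjusted p of 1 and 0.652 by edgeR. Without D-3 IR 10 and D+1 IR 3 they were 0.47 and 0.48. Leaving out the highest library of each irradiated group lowers both values whatever its lymphocyte RNA, so these fits are no test of that RNA. The part of lymphocyte RNA in these values was not tested.

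Gli1, the transcription factor that hedgehog signalling induces, ran from 6.21 over 7.35 to 13.7 CPM in control libraries, from 6.54 over 9.58 to 15.3 CPM in D-3 IR and from 4.05 over 9.85 to 15.7 CPM in D+1 IR. Its 3 log2 fold changes were 0.25, 0.12 and 0.13 with standard errors of 0.30 to 0.33. The groups overlapped over most of their range, and D+1 IR held both the lowest and the highest library.

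Of the secreted proteins, Pi15 varied most. Peptidase inhibitor 15, like Pi16, belongs to the CAP family of secreted cysteine-rich proteins. Control libraries had 110, 163, 167, 294 and 618 CPM. D-3 IR ran from 134 over 196 to 533 CPM and D+1 IR from 8.91 over 61.9 to 258 CPM. D+1 IR 3, 20, 2 and 1 had 8.91, 22.8, 52.2 and 61.9 CPM, all below the lowest library of the other groups, whereas D+1 IR 17, 18 and 19 had 258, 187 and 177 CPM, within their range. The log2 fold change was 1.41 (standard error 0.61) between the irradiated groups, with an unadjusted p of 0.0321 and an adjusted p of 0.421 by edgeR. Against control it was -1.30 (standard error 0.65, adjusted p = 0.644) in D+1 IR and 0.11 (standard error 0.66, adjusted p = 1) in D-3 IR.

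Between the irradiated groups, the log2 fold change of Pi15 was 1.21 without D+1 IR 3 and 0.87 (adjusted p = 0.979 by edgeR) without D+1 IR 1, 2 and 3. The weighted limma voom fit gave 2.05, with an adjusted p of 0.0309. Smooth muscle genes moved with it. All 8 of the list had a positive log2 fold change between the irradiated groups (median 1.14), 7 with an unadjusted p under 0.05, where 11.5% of all genes had one, and 0 called by edgeR. Their summed level was 1398, 2144, 3031 and 6887 CPM in D+1 IR 3, 20, 1 and 2, against 10860 to 16564 CPM in the other 3 D+1 IR libraries, 5537 to 29334 CPM in control and 9688 to 24695 CPM in D-3 IR. Other lists moved between the irradiated groups as well. All 7 macrophage genes had a negative log2 fold change (median -0.52, 0 at an unadjusted p under 0.05). So had all 7 measured genes of the sympathetic neuron and adrenal list (median -1.36, 1 at that p). All 8 lymphocyte genes had a positive one (median 0.57, 0 at that p). The log2 fold changes were positive for 7 of 7 erythroid genes (median 2.89, 7 at an unadjusted p under 0.05) and 8 of 8 skeletal muscle genes (median 3.42, 5 at that p), and negative for 7 of 7 brown adipocyte genes (median -1.08) and 8 of 8 white adipocyte genes (median -0.84), none at that p. Skeletal muscle genes were uneven within D-3 IR, where libraries 10 and 15 had summed levels of 7401 and 2750 CPM. All other libraries of that group had 12.6 to 107 CPM. D+1 IR libraries ran from 6.15 to 725 CPM. Group medians of this sum were 59.5 CPM (D-3 IR) and 32.5 CPM (D+1 IR). The part of any of the lists above in the difference of Pi15 was not tested.

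Pi16, the CAP family protein that marks stem-like fibroblasts of many tissues, had means of 321 ± 166, 358 ± 158 and 298 ± 156 CPM in the control, D-3 IR and D+1 IR groups (SD, n = 5, 7 and 7). Clec3b, or tetranectin, a plasminogen-binding lectin, had means of 148 ± 75.6, 145 ± 51 and 150 ± 90.9 CPM. Dpt, or dermatopontin, a matrix protein that binds collagen and decorin, averaged 219 ± 69.9, 222 ± 82.3 and 227 ± 103 CPM. The group means of these 3 genes were closer to each other than 1 SD. D+1 IR 3 was the lowest library for each, at 61.4 CPM for Pi16, 41.2 CPM for Clec3b and 34.0 CPM for Dpt, while the next lowest D+1 IR library for Dpt had 171 CPM. Without it the log2 fold change of Dpt in D+1 IR against control was 0.24, in place of 0.05, and that of Pi16 was 0.07, in place of -0.11.

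The groups accounted for 36.6% of the variance of Pi15 in log2 CPM, more than for 96.4% of all genes tested. For the other 8 genes this share was 0.213% (Clec3b) to 18.9% (Ly6a), where the median gene had 9.55%. Pi15 also had the largest spread within groups, an SD of 1.29 on the log2 scale. Cd34 had the smallest, 0.54, and the median of all genes was 0.56.

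**Figure D3:**
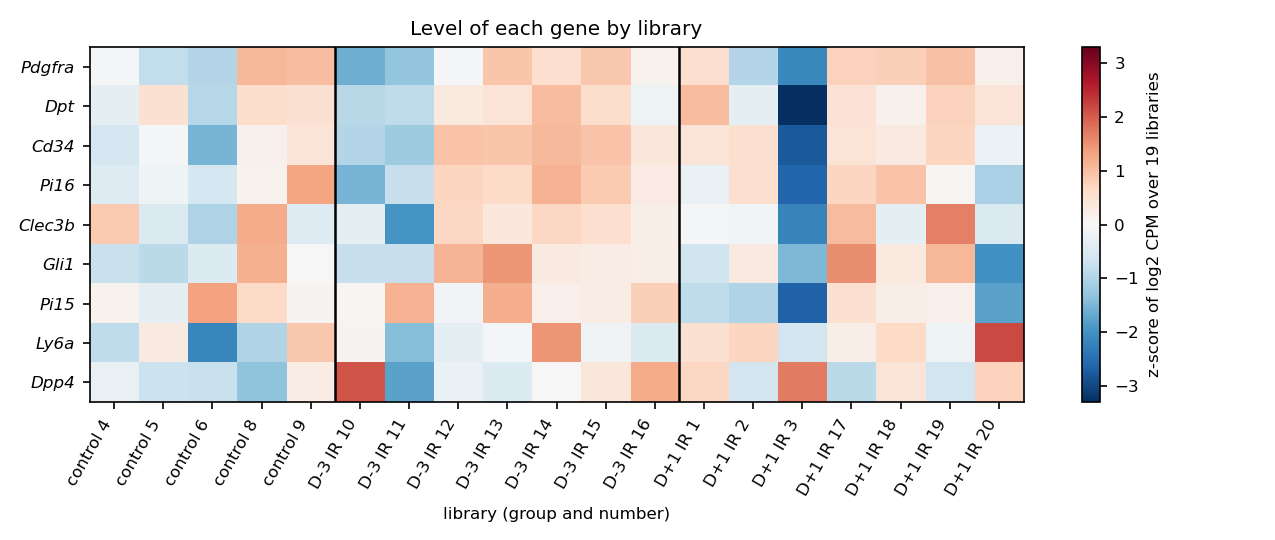
Level of each gene (vertical) in each of the 19 libraries (horizontal, black lines part the groups) as a z-score of log2 CPM, the distance from the gene's mean over all libraries in SD. D+1 IR 3 is lowest for Dpt (-3.29), Cd34 (-2.77), Pi15 (-2.66) and Pi16 (-2.62) and high for Dpp4 (1.73).

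Whether the genes moved together was examined across the 19 libraries, with permutation tests of Pearson's r and Spearman's rho of log2 CPM, adjusted by Benjamini-Hochberg over the 36 pairs. By Pearson's r 15 pairs passed, all positive, and by Spearman's rho 12, all of which passed by both. The median r was 0.46. Pdgfra, Cd34, Dpt, Pi16, Clec3b and Gli1 formed the block, since 14 of their 15 pairs passed by Pearson's r. The exception was Gli1 with Dpt (r = 0.47, adjusted permutation p = 0.0736). The highest was Cd34 with Dpt, r = 0.89 and rho = 0.68 (adjusted permutation p = 0.00024 and 0.0114).

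For Cd34 with Dpt, r was 0.92 after the group means were subtracted, 0.87 in the 16 libraries of the common file series, 0.80 without D+1 IR 3 and 0.75 without the 2 libraries farthest from the median, D+1 IR 3 and control 6. Cd34 with Pi16 had r = 0.88 and Pdgfra with Dpt r = 0.82, and these were 0.75 and 0.74 without the 2 farthest libraries. Pi16 with Dpt dropped from 0.77 to 0.43 and Pi16 with Clec3b from 0.59 to 0.38 without D+1 IR 3 and D-3 IR 10. These 2 relations thus rest in good part on those libraries. Other pairs of the block fell as well. Pdgfra with Pi16 went from 0.76 to 0.54 without the same libraries. Without D+1 IR 3 and D-3 IR 11, Clec3b with Dpt went from 0.72 to 0.45 and Clec3b with Cd34 from 0.76 to 0.53. Over all 36 pairs, leaving D+1 IR 3 and D-3 IR 10 out left 12 pairs that passed by Pearson's r and 4 by Spearman's rho. Without D+1 IR 1, 2 and 3, the counts were 15 and 5. These counts take in pairs of either sign and need not be of the same pairs. In those 16 libraries Pi16 with Clec3b had r = 0.40 and Pi15 with Ly6a r = -0.76.

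Pi15, Ly6a and Dpp4 stood outside the block. Pi15 passed only with Gli1 (r = 0.56, adjusted permutation p = 0.0264, rho = 0.46 with 0.108), and r was 0.20 without D+1 IR 3 and 20. Ly6a and Dpp4 passed with no other gene. The lowest value was that of Pi15 with Dpp4, r = -0.52 (adjusted permutation p = 0.0544) and rho = -0.48 (0.0997), and -0.28 without D+1 IR 3 and 20. With the group means subtracted it was -0.58 and passed (adjusted permutation p = 0.0223), and 19 of the 36 pairs passed in all. Pi15 with Ly6a had r = -0.47 in all libraries (adjusted permutation p = 0.0762) and -0.76 in the 16 libraries of the common file series, a change of size that was not tested.

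**Figure D4:**
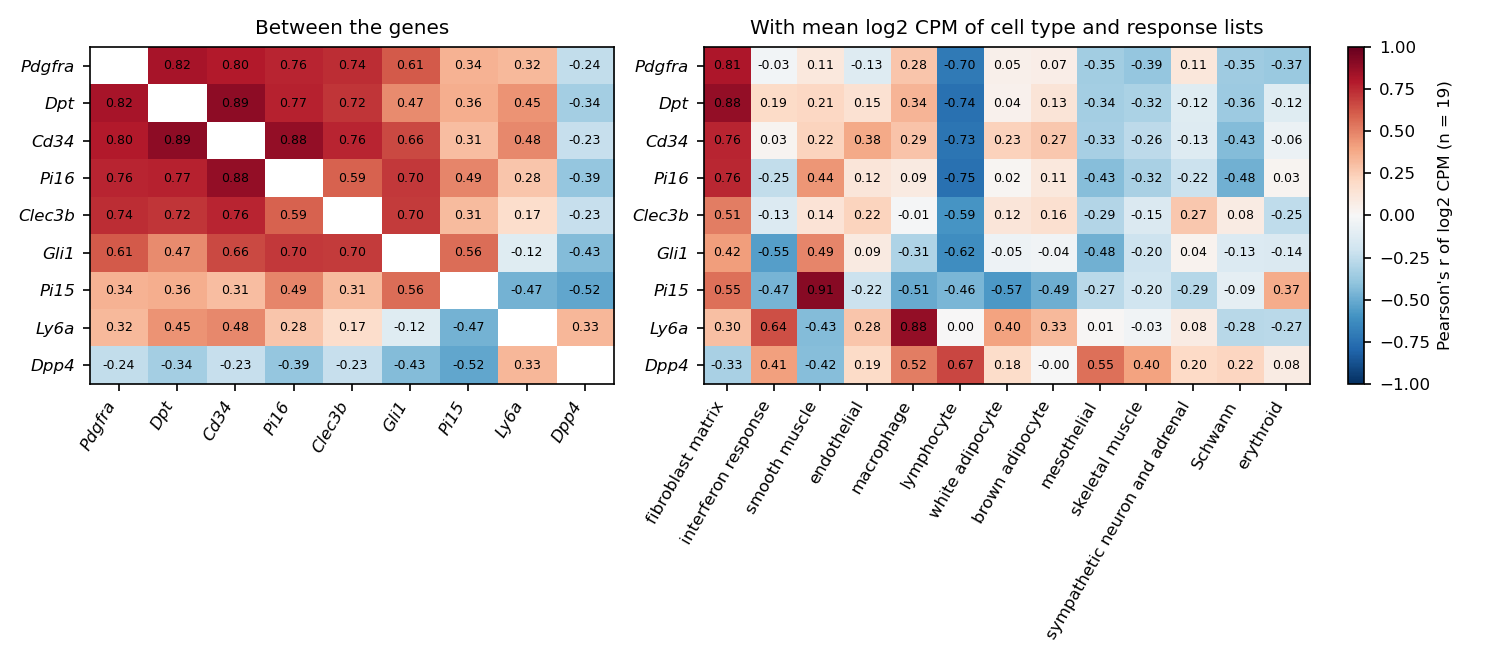
Pearson's r of log2 CPM over 19 libraries, on the left between the 9 genes and on the right between each gene and the mean log2 CPM of 13 gene lists. The colour runs from blue (-1) to red (1). Pdgfra, Dpt, Cd34, Pi16, Clec3b and Gli1 form a red block with r of 0.47 to 0.89, and the strongest cells on the right are Pi15 with smooth muscle (0.91), Ly6a with macrophage (0.88) and Dpt with fibroblast matrix (0.88).

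Each gene was also set against the mean log2 CPM of 13 lists of cell types and responses, which gave 117 relations. By Pearson's r 8 positive and 5 negative relations passed, by Spearman's rho 4 and 4, and 6 by both. The fibroblast matrix list passed by Pearson's r with Dpt (r = 0.88), Pdgfra (0.81), Cd34 (0.76) and Pi16 (0.76). Pdgfra passed by both measures (rho = 0.75, adjusted permutation p = 0.0111). For Dpt, r was 0.68 without D+1 IR 3 and D+1 IR 2. Clec3b (r = 0.51), Gli1 (0.42), Ly6a (0.30), Dpp4 (-0.33) and Pi15 (0.55) did not pass with this list. Without D+1 IR 3 these were 0.18 for Clec3b, 0.24 for Gli1, 0.31 for Ly6a, 0.0049 for Dpp4 and 0.08 for Pi15. Of those that passed, Cd34 was then lowest, at 0.50. With the endothelial list, Cd34 had r = 0.38 (adjusted permutation p = 0.342), and 0.20 without D+1 IR 2 and control 6.

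Pi15 followed the smooth muscle list, which holds Myh11, Acta2, Cnn1 and 5 other contractile genes. Its r was 0.91 and rho 0.76 (adjusted permutation p = 0.000585 and 0.0111). It was 0.86 with group means subtracted, 0.88 in the 16 libraries and 0.81 without D+1 IR 3 and 20. Ly6a followed the macrophage list, with r = 0.88 and rho = 0.82 (adjusted permutation p = 0.000585 and 0.00702), 0.94 in the 16 libraries and 0.77 without D+1 IR 20 and control 6. Its relation with the interferon response list (r = 0.64, adjusted permutation p = 0.0299) was 0.33 without D+1 IR 20 and D-3 IR 14.

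The lymphocyte list went the other way from the block. By Pearson's r it passed with Pi16 (r = -0.75), Dpt (-0.74), Cd34 (-0.73), Pdgfra (-0.70) and Gli1 (-0.62), and Clec3b (-0.59) passed by rho alone (rho = -0.65, adjusted permutation p = 0.0471). Without D-3 IR 10 and D+1 IR 3 these values were -0.40 for Pi16, -0.50 for Dpt, -0.53 for Cd34, -0.39 for Pdgfra, -0.63 for Gli1 and -0.54 for Clec3b. Dpp4 had r = 0.67 with the lymphocyte list (adjusted permutation p = 0.0219, rho = 0.45 with 0.221) and 0.24 without those 2 libraries. With the macrophage list Dpp4 passed by rho alone (rho = 0.66, adjusted permutation p = 0.0448).

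**Figure D5:**
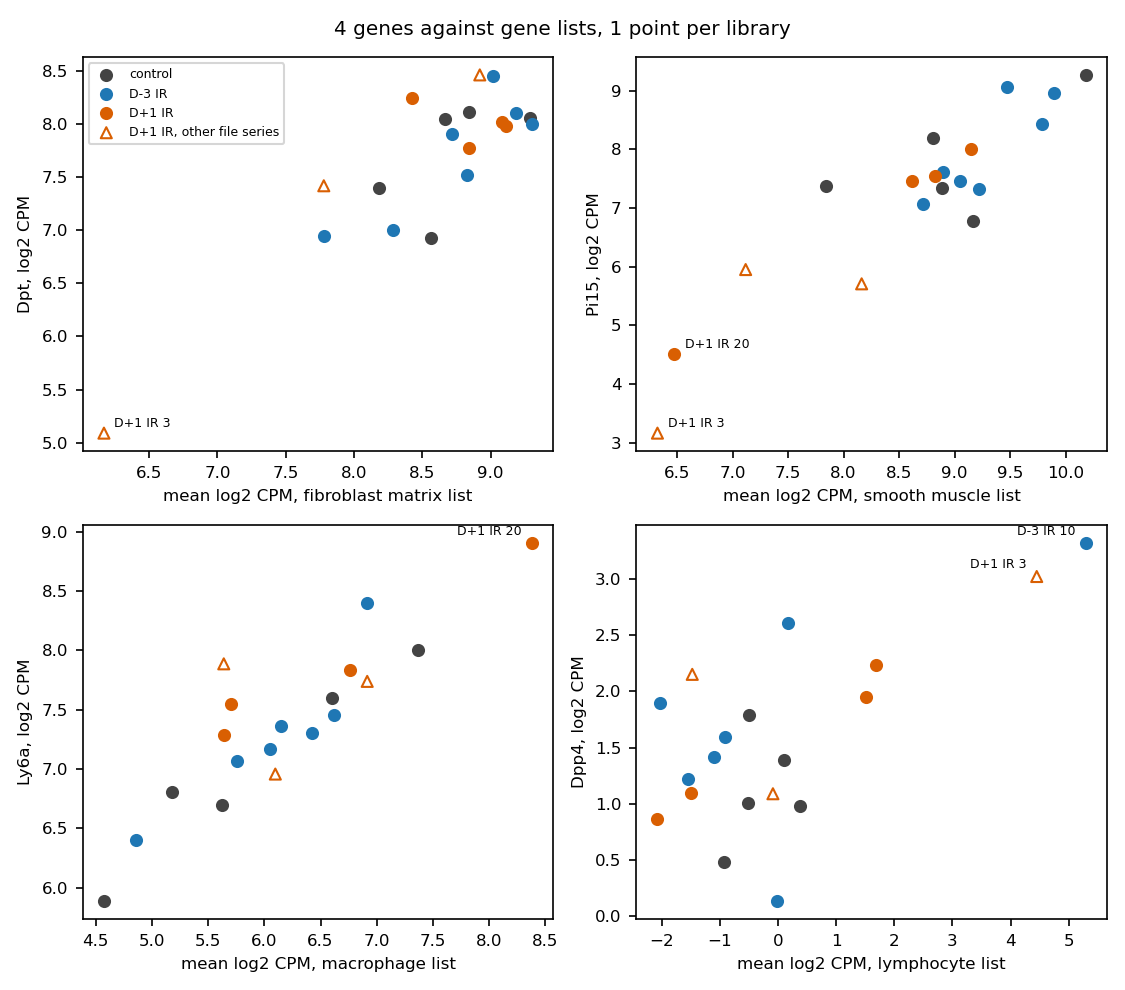
Log2 CPM of Dpt, Pi15, Ly6a and Dpp4 (vertical) against the mean log2 CPM of the fibroblast matrix, smooth muscle, macrophage and lymphocyte lists (horizontal), 1 point per library, coloured by group, with open triangles for D+1 IR 1, 2 and 3. D+1 IR 3 is lowest for Dpt and Pi15, D+1 IR 20 highest for Ly6a, and D-3 IR 10 and D+1 IR 3 sit apart at the right for Dpp4.

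Among all genes tested, those whose log2 CPM was most like the mean z-score of the 9 over the 19 libraries were Fbln1 (r = 0.95), which encodes a fibulin of the elastic matrix, Tspan11 (0.95), Enpp3 (0.92), Serping1 (0.91), the inhibitor of complement C1, and Gdf10 (0.91), a ligand of the TGF-β family. Next came the fibroblast transcription factor Twist2 (0.89), Bace2 (0.89), Gm5084 (0.89), Cygb (0.88) and Bicc1 (0.88). Without D+1 IR 3 these 10 values were 0.77 to 0.92. For single genes the nearest were Fbln1 for Pdgfra (r = 0.93), Tspan11 for Pi16 (0.92), the semaphorin Sema3c for Pi15 (0.98), Tmem273 for Ly6a (0.91), the chemokine receptor Cxcr3 of T cells for Dpp4 (0.86), 8030423F21Rik for Clec3b (0.95), Enpp6 for Gli1 (0.91), Heg1 of the endothelium for Cd34 (0.90) and Bicc1 for Dpt (0.93). 8030423F21Rik averaged only 0.285 CPM. None lay on the chromosome of its partner.

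The pathways around the members were read from lists of other genes. Of the hedgehog list 15 of 16 genes passed the filter on low counts, all but the ligand Shh. edgeR called 0 of the 15 in each comparison. Between the irradiated groups all 15 had a positive log2 fold change (median 0.32, beside -0.04 over all genes), and 4 of the 15 had an unadjusted p under 0.05, where 11.5% of all genes had one. They were the ligand Ihh, the kinesin Kif7, the transcription factor Gli2 and the signal transducer Smo. Smooth muscle and erythroid genes were positive in the same comparison, as given above with Pi15, and their part in the hedgehog values was not tested. The mean level of Ihh was 7.55 ± 5.91 CPM (SD over 5 control libraries), with 8.51 ± 4.68 CPM for D-3 IR and 1.77 ± 1.64 CPM for D+1 IR (SD over 7 libraries each). The log2 fold change was 2.25 (standard error 0.64, adjusted p = 0.409 by edgeR), 2.26 by DESeq2 (adjusted p = 0.0418), 2.94 in limma voom (adjusted p = 0.0228) and 1.63 without D+1 IR 1, 2 and 3 (adjusted p = 0.979 by edgeR). Kif7 had 0.81 (standard error 0.28) and Gli2 0.77 (standard error 0.33, 0.44 without D+1 IR 1, 2 and 3) in that comparison, while the target Gli1 had 0.13 and the receptor Ptch1, another target, 0.13.

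The 6 other genes of PDGF signalling all passed the filter, and none was called. Between the irradiated groups, 5 had a positive log2 fold change (median 0.58, beside -0.04 over all genes). 1 of the 6 had an unadjusted p under 0.05, near the 11.5% of all genes. The ligand Pdgfa, which binds PDGFRα, had means of 136 ± 69.4, 130 ± 38.1 and 79.3 ± 26.5 CPM in the control, D-3 IR and D+1 IR groups, and its log2 fold change was 0.72 (standard error 0.31, adjusted p = 0.421 by edgeR). The lowest value of Pdgfa under the alternative settings was 0.49. Pdgfd had 0.92 (standard error 0.46) and Pdgfrb, the receptor of mural cells, 0.50 (standard error 0.25). The part of smooth muscle and erythroid genes, positive in this comparison as given above with Pi15, in the PDGF values was not tested.

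Of 11 other CAP family genes, 4 passed the filter and 0 were called. All 4 had a negative log2 fold change in D+1 IR against control (median -0.68), among them Crispld1 (-0.73, standard error 0.31), Crispld2 (-0.77, standard error 0.37) and Glipr1 (-0.62, standard error 0.47). All 4 were negative in D-3 IR against control as well (median -0.24). The Ly6 family had 7 of 9 genes measured and 0 called. In D+1 IR against control 6 of the 7 were positive (median 0.84), among them Ly6c1 at 0.76 (standard error 0.35) and Ly6e at 0.84 (standard error 0.49). Ly6e had a mean of 501 CPM in D+1 IR with an SD of 467 CPM. The remaining positive genes had standard errors of 0.77 to 1.70 there, and group means as low as 0.24 CPM. Lynx1 was negative there, at -0.61 (standard error 0.25). Of the dipeptidyl peptidase family 4 of 5 were measured and 0 called, with values of -0.23 (standard error 0.16) for Dpp9, -0.31 (standard error 1.63) for Dpp6 and 0.20 (standard error 0.35) for Fap, the fibroblast activation protein.

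The remaining fibroblast lists also had 0 genes called by edgeR. For the 20 matrix genes the median log2 fold change was 0.12 between the irradiated groups, where the leading members were Col6a2 (0.77, standard error 0.39), Col6a1 (0.74, standard error 0.38) and Col5a2 (0.83, standard error 0.50). Without D+1 IR 1, 2 and 3 these were 0.35, 0.36 and 0.46. Of 12 genes of stem-like fibroblasts 4 had an unadjusted p under 0.05 in that comparison, where 11.5% of all genes had one, all positive, among them Anxa3 (0.97, standard error 0.36), Limch1 (0.95, standard error 0.37) and Sema3c (1.17, standard error 0.47). Without D+1 IR 1, 2 and 3 these were 0.64, 0.60 and 0.74. The median of the 12 was -0.09. Smooth muscle and erythroid genes were positive between the irradiated groups, as given above with Pi15. Their part in the values of these fibroblast lists was not tested.

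Of 13 genes of activated fibroblasts 3 were positive and 2 negative at that p, beside 11.5% of all genes in either direction. Periostin (Postn), a matrix protein of myofibroblasts, had means of 2829 ± 2126, 3517 ± 1821 and 1227 ± 840.2 CPM in the 3 groups, and its log2 fold change was 1.52 (standard error 0.57, adjusted p = 0.410 by edgeR). The lowest value of Postn under the alternative settings was 1.13. Tenascin C (Tnc) had 1.44 (standard error 0.53), and 0.86 without D+1 IR 1, 2 and 3. Lrrc15, a marker of activated fibroblasts, went the other way, with means of 1.89 ± 0.764 and 7.08 ± 7.12 CPM in D-3 IR and D+1 IR libraries (log2 fold change -1.90, standard error 0.60, adjusted p = 0.409). The list therefore held genes of both directions. Whether the values of Postn and Tnc go with smooth muscle or erythroid content was not tested. Of the 10 interferon response genes 9 had a negative value between the irradiated groups (median -0.40), with -0.04 (standard error 0.13) for Gbp2 and 0.77 (standard error 0.44) for Rsad2. Their summed level was 185 to 377 CPM in D-3 IR, 803 CPM in D+1 IR 20 and 131 to 346 CPM in the other D+1 IR libraries.

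The weighted limma voom fit, which called 13% of all genes between the irradiated groups, also called some of the genes named from these lists, but they were named for a small p in a test of the same groups, so their number is no evidence about the lists. In that fit none of the 9 members other than Pi15 passed.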

How the data were processed

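The authors extracted RNA from abdominal aortas, selected polyA RNA, ran FastQC on the reads, used STAR 2.7.9a for alignment to GRCm38 and deposited raw counts per gene, 1 file per library, with an unstranded column and a column for each strand. The joined table of all libraries held the same unstranded counts (773262 of 773262 values) and the unstranded counts were used. Second-strand counts were 49.87% to 50.14% of both strands. Coordinates are those of GENCODE M21, an earlier release than that of the files. Gene ID versions in the files were higher than those of M21 for 52044 of 52081 matched genes. Whether the annotation of the files is one of GRCm38, the build the authors name, was not tested. Reads that aligned to several places (6.23% to 15.1%) were not counted.

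The 17617 genes kept by the filter on low counts were fitted in edgeR 4.0.16 (R 4.3.3) over all 19 libraries with TMM factors and tested by two-sided quasi-likelihood F-tests, with no covariate and Benjamini-Hochberg adjustment at 0.05 over all genes. The common biological coefficient of variation was 0.591, so the spread between libraries and not the depth limits precision. With 1 library per mouse, differences between mice cannot be told apart from those of dissection or library preparation. Log2 CPM used a prior count of 2. Relations were tested by two-sided permutation (100000 resamples, smallest p 1e-05). The procedures were tested on simulated data. Promoter sequences are RefSeq's of GRCm38.p6. Alternatives were DESeq2 1.42.0, limma 3.58.1 voom with sample quality weights, other edgeR methods, normalizations, filters and strand, a prior count of 0.5, and fits without single libraries or without D+1 IR 1, 2 and 3. The relations with the 13 lists and fits without D-3 IR 10 and D+1 IR 3 were added after the data were seen. The 9 genes and all lists were chosen with earlier results of these data known. Named genes are the 9, up to 3 of each pathway list with the smallest p of any difference among the groups, and those nearest in pattern. 1 gene that this rule takes in is not reported here. Smo, Ptch1, Apoe, Arhgap9 and the smooth muscle genes named were chosen after their values were seen, or as background.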

Additional observations from a re-analysis of the deposited data

Results flagged for a closer look

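Each gene was searched in each of the 3 groups, 27 sets of values in all, for a library that lies far from the others of its group by Dixon's criterion, which chance passes in about 1 of 20 sets. 3 values passed it. Clec3b in D-3 IR 11 was the lowest of the 7 D-3 IR libraries, at 5.56 log2 CPM (47.2 CPM, the next lowest being 112 CPM). Cd34 in D+1 IR 3 was the lowest of its group, at 5.73 log2 CPM (52.9 CPM, next 136 CPM). Dpt in D+1 IR 3 was the lowest of its group, at 5.09 log2 CPM (34.0 CPM, next 171 CPM). The summed fibroblast matrix genes were also lowest in D+1 IR 3, at 3347 CPM, and the lymphocyte genes were at 246 CPM there. Their part in the low values was not tested.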

How the results depend on the processing

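No paired analysis was possible because every library comes from a different mouse and no replicate number is shared between groups. Of 837 values of the 9 genes under the alternatives, 69 changed sign, none of them from a log2 fold change over 0.3 in size, and 1 had an adjusted p under 0.05, Pi15 in limma voom. The cause of the changes was not tested. DESeq2 called 2 genes of all tested in D+1 IR against control, 56 between the irradiated groups and 23 for any difference, and edgeR's newer quasi-likelihood method called 1 gene for any difference. limma voom called 2298 between the irradiated groups, of which 1 was among the 9.

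The log2 fold changes of named genes that changed sign with a method were, in limma voom, Ly6a (-0.066) and Dpt (-0.18) in D-3 IR against control, Dpt in D+1 IR against control (-0.11) and Dpp4 between the irradiated groups (-0.069), and with upper quartile factors Clec3b in D-3 IR against control (0.019). Without D+1 IR 1, 2 and 3 they were Clec3b in D-3 IR against control (0.0032), Pi16 in D+1 IR against control (0.11), and Gli1 (-0.075) and Gbp2 (0.058) between the irradiated groups. Without D-3 IR 10 and D+1 IR 3 they were Pdgfra (0.052) and Clec3b (0.027) in D-3 IR against control, Pi16 in D+1 IR against control (0.071) and Dpp4 between the irradiated groups (-0.011).

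With each library left out in turn, edgeR still called 0 of the 9 in each comparison. Changes of sign occurred in D-3 IR against control for Clec3b (-0.19 to 0.24), Dpt (-0.13 to 0.12), Ly6a (-0.015 to 0.55), Pdgfra (-0.25 to 0.13) and Pi15 (-0.088 to 0.67). In D+1 IR against control they occurred for Clec3b (-0.27 to 0.29), Dpt (-0.10 to 0.24), Gli1 (-0.065 to 0.36), Pdgfra (-0.15 to 0.22) and Pi16 (-0.28 to 0.26). Between the irradiated groups they occurred for Clec3b (-0.21 to 0.24), Dpp4 (-0.30 to 0.38), Dpt (-0.22 to 0.11), Fap (-0.34 to 0.082), Gbp2 (-0.098 to 0.021), Ly6e (-0.66 to 0.24) and Pdgfra (-0.26 to 0.045). Pi15 ranged from 1.21 to 1.78 in that comparison and from -1.67 to -0.74 in D+1 IR against control, where it was -0.73 without D+1 IR 1, 2 and 3. The number of pairs that passed by Pearson's r, of either sign, was 14 to 19.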
